A study of Mus musculus with 8 samples.

Results

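The genes of the MAP kinase cascades were examined in mouse dendritic cells for sites of DC-SCRIPT, the zinc finger regulator that the Zfp366 gene encodes. Members were all protein-coding genes of the mouse RefSeq table (GRCm38.p6) whose symbol starts with Mapk, Map2k, Map3k or Map4k followed directly by a digit. This gave 49 of 21900 protein-coding genes. A peak was assigned to a member when its centre lay inside the gene, or, when the centre lay in no protein-coding gene, when that gene was the nearest. Binding was profiled by CUT&Tag, in which an antibody guides a transposase that cuts and tags DNA near the bound protein. Conventional dendritic cells of the spleen came from female C57BL/6 mice, as cDC1, known for cross-presentation to CD8 T cells, and cDC2, known for priming of CD4 T cells. The cDC1 groups were 2 Zfp366-/- libraries, called KO here, and 3 Zfp366+/+ libraries, called WT. The cDC2 groups were 2 KO libraries and 1 WT library. Per the labels a library stands for a mouse pool. The sources used here give neither the age of the mice nor the deleted part of Zfp366.

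For each subset the authors called peaks on 1 set of WT tags against 1 set of KO tags. The sets held 12.1 M KO tags and 35.5 M WT tags in cDC1, and 6.83 M KO tags and 4.77 M WT tags in cDC2. Signal is given as normalised tags, meaning tags per 10000000 of the set. The tables give pooled values only, so the spread between mouse pools could not be set against any difference. The deposited fold is WT over KO, so a fold above 1 means less signal in KO cells, and every listed fold is at least 4 because the peak caller required it. Each fold has an exact 95% interval from the tag numbers, which reflects counting error alone. The lowest KO value listed, 0.5 tag, also stands for no tag. There the fold is a lower bound against 3 KO tags, which equal 2.47 normalised tags in cDC1 and 4.40 in cDC2. This bound takes the WT tags as exact, so it leaves out their counting error. Peaks are not expression, and the tables hold no RNA values against which the labelled cell types could be checked.

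MAP kinase cascades relay signals from receptors through kinases that phosphorylate each other in tiers. MAP4K and MAP3K enzymes receive the input, MAP2K enzymes activate the MAP kinases, and these reach transcription factors in the nucleus. The MAP kinases fall into the ERK, JNK and p38 groups and a few atypical enzymes. In dendritic cells these cascades act downstream of Toll-like and cytokine receptors and are known for their part in maturation and cytokine production.

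Sites at the annotated start of genes are shown first, because there a peak can be paired with a gene by overlap rather than by distance. Where genes overlap or lie close together, such a peak can also fall in another gene. A start window here runs from 250 bases before to 50 bases after an annotated start. RefSeq gave such windows for 37 of the 49 members. In cDC1, 18 of these 37 genes (48.6%) had a peak that shared at least 1 base with a window, against 24.4% of 17492 protein-coding genes with a window. The windows below are those with the highest-scoring peak in 6 classes (MAP3K, MAP2K, ERK, JNK, p38 and atypical MAP kinase), among peaks assigned to the gene that share at least 100 bases with it. Capitals mark the bases inside the cDC1 peak, and each sequence reads 5′ to 3′ on the strand of its gene, from RefSeq build GRCm38.p6.
Map3k11 (chr19:5688881-5689180, plus strand): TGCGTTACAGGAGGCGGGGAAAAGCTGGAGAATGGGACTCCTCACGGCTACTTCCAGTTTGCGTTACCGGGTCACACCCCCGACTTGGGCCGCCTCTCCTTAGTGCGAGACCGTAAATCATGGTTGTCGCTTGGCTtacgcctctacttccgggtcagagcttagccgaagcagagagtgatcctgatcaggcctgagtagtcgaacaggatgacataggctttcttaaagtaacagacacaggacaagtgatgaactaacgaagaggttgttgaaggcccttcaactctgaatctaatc
Map2k7 (chr8:4238490-4238789, plus strand): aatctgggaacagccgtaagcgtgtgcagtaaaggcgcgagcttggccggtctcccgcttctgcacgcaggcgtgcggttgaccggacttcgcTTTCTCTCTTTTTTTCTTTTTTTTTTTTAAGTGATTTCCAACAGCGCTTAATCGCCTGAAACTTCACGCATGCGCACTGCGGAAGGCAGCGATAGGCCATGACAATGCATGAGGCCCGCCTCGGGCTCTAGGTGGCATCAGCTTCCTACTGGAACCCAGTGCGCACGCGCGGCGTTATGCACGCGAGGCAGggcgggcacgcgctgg
Mapk7 (chr11:61494217-61494516, minus strand): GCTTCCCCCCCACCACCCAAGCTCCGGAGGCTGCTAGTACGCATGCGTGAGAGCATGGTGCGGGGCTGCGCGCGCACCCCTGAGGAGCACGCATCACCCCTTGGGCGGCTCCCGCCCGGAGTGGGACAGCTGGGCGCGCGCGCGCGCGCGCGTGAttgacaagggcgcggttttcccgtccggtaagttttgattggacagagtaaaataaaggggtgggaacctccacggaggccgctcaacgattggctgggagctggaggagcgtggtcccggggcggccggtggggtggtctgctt
Mapk9 (chr11:49846501-49846800, plus strand): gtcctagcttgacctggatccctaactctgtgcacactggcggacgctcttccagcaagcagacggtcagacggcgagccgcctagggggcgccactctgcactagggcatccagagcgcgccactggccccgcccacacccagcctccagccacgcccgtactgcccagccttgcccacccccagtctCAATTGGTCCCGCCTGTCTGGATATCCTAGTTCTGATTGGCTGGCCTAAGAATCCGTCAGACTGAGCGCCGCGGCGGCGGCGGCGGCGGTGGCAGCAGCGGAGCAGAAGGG
Mapk14 (chr17:28691092-28691391, plus strand): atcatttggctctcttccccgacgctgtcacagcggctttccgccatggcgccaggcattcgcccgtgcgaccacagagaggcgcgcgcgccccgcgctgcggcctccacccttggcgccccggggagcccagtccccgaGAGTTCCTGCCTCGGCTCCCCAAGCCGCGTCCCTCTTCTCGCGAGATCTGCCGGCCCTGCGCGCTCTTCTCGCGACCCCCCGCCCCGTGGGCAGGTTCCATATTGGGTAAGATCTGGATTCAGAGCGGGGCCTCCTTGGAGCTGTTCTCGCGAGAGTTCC
Mapk6 (chr9:75409967-75410266, minus strand): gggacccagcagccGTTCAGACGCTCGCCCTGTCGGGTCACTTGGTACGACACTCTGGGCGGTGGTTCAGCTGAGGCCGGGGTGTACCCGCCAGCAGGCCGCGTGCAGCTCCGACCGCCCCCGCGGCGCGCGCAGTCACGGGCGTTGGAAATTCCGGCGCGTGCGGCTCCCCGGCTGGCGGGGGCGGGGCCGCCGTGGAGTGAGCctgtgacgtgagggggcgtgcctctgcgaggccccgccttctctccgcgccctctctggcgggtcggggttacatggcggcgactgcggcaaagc

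The signal at these 6 starts ran from 20.7 to 46.9 normalised tags in WT cells. Map3k11 encodes MLK3, a kinase upstream of JNK, and its peak held 4.53 normalised tags in KO cells, against 46.9 in WT cells (fold 10.4, 95% interval 4.26 to 26.2). That peak also lay within Pcnx3, which overlaps Map3k11. Mapk9, a JNK gene, had 6.18 normalised tags in KO cells and 41.0 in WT cells (fold 6.63, 95% interval 3.06 to 14.6). Mapk7 encodes ERK5, and its peak held 4.12 normalised tags in KO cells, against 27.8 in WT cells (fold 6.73, 95% interval 2.81 to 21.3). Mapk6 encodes the atypical kinase ERK3 and held 2.47 in KO cells and 24.7 in WT cells (fold 9.97, 95% interval 3.32 to 49.6). KO tags were at the lowest value at Mapk14, which encodes p38 alpha, and at Map2k7, which encodes an activator of JNK. WT cells held 25.2 normalised tags at Mapk14, at least 10.2-fold higher than in KO cells, and 20.7 at Map2k7, at least 8.37-fold higher. The Mapk14 peak also reached the end of Slc26a8, the next protein-coding gene, 0.069 kb below Mapk14.

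The highest start-window peak of all 18 was at Map3k3, which encodes MEKK3, with 7.01 normalised tags in KO cells and 70.1 in WT cells (fold 9.99, 95% interval 4.91 to 20.9). Map3k14 encodes NIK, the kinase that starts the non-canonical NF-kB pathway. Its start held 5.36 normalised tags in KO cells, against 42.4 in WT cells (fold 7.91, 95% interval 3.47 to 18.5). Map3k7 encodes TAK1, which links Toll-like and cytokine receptors to JNK, p38 and NF-kB, and its start held 3.30 in KO cells and 26.5 in WT cells (fold 8.03, 95% interval 3.04 to 30.1). Among the MAP2K genes, starts with a peak also belonged to Map2k6, Map2k1 and Map2k4. Map2k6, an activator of p38, had 2.47 normalised tags in KO cells and 29.9 in WT cells (fold 12.1, 95% interval 4.02 to 59.5), with 26 bases of its window inside the peak. Map2k1 encodes MEK1, the activator of ERK, and had 5.77 in KO cells and 25.5 in WT cells (fold 4.42, 95% interval 2.05 to 11.3), the lowest fold among the 18 peaks, close to the required limit. Map2k4, a further activator of JNK, had KO tags at the lowest value and 16.2 normalised tags in WT cells, at least 6.55-fold higher. At Mapk8, another JNK gene, the start held 2.06 normalised tags in KO cells and 23.0 in WT cells (fold 11.2, 95% interval 3.09 to 46.3). Map3k4, which encodes MEKK4, held 1.24 in KO cells and 24.0 in WT cells (fold 19.4, 95% interval 3.90 to 122.0).

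The weakest start-window peaks were those of Map3k20, a stress kinase gene, with 1.65 normalised tags in KO cells and 10.9 in WT cells (fold 6.58, 95% interval 1.73 to 57.0), and of Mapk8ip3, a JNK scaffold gene, with 2.06 in KO cells and 10.6 in WT cells (fold 5.13, 95% interval 1.37 to 21.9). The windows of Map4k5 and Mapk1ip1l overlapped peaks whose centres lay inside other genes, Atl1 and Gm35078, so those peaks are not counted as peaks of the members. Their signals were 2.47 normalised tags in KO cells at both, against 16.2 in WT cells at Map4k5 (fold 6.55, 95% interval 2.11 to 32.4) and 18.7 in WT cells at Mapk1ip1l (fold 7.58, 95% interval 2.47 to 37.4). Over the 18 peaks the median was 24.95 normalised tags in WT cells, and KO tags were at the lowest value at 3 of them.

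**Figure D1:**
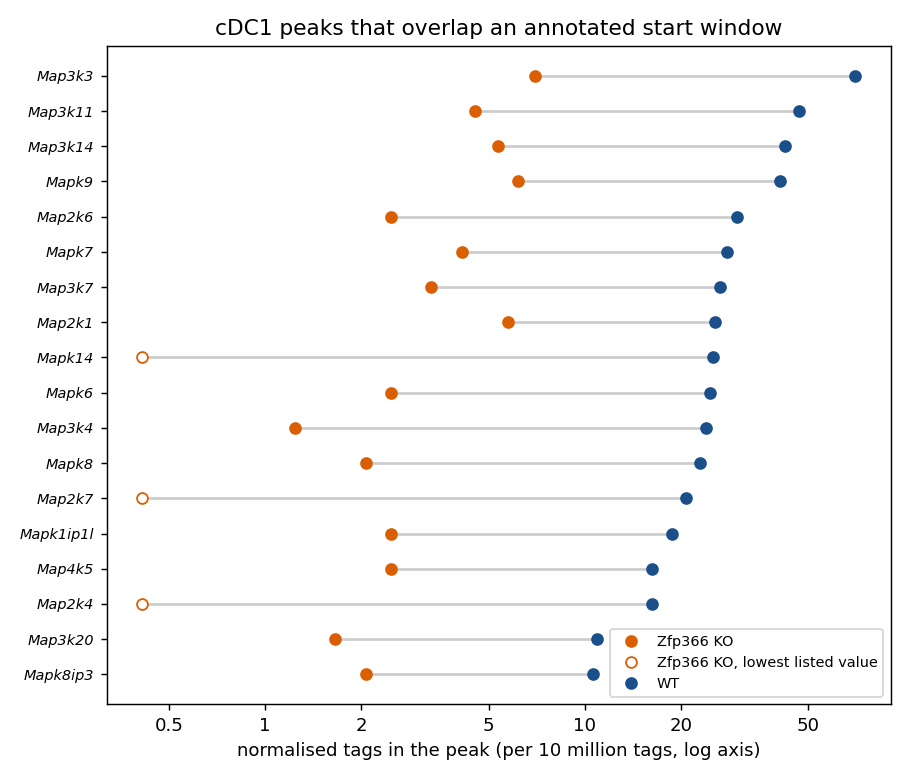
Normalised tags (per 10000000 tags, log axis) in KO and WT cDC1 at the 18 peaks that overlap a start window of a member, 1 row per gene, each point a pooled tag set. WT signal ranged from 10.6 at Mapk8ip3 to 70.1 at Map3k3, and the open KO circles of Mapk14, Map2k7 and Map2k4 mark the lowest listed value.

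The start windows of members were rich in G and C. The median was 67.2% G and C over the 20 member windows that a cDC1 peak overlapped (Mapk7 and Map3k20 have 2 overlapping windows each), 64.0% over all 49 member windows and 56.3% over 21263 windows of protein-coding genes. The median number of CG pairs was 27 in the overlapped windows, 23 in all member windows and 13 in all windows. Both strands were searched for 4 motifs: GAGGAAGT for ETS factors, TGANTCA for AP-1, a pair of GAAA blocks 2 bases apart for interferon response elements and the E-box CACGTG. Each motif was counted on its own, whether or not it overlapped another. The ETS letters were in 1 of the 20 overlapped windows, that of Map3k3, and in 3.13% of all windows. The AP-1 letters were in 1, that of Map2k6, and in 6.99% of all windows. In both cases the match lay outside the part of the window inside the peak. The windows of Map3k3 and Map2k6 hold only 85 and 26 bases of these peaks. Peak bases outside the start windows were not searched, nor were peaks elsewhere. The interferon letters and the E-box were in 0 of the 20 windows, and in 3.35% and 7.84% of all windows.

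At least 1 cDC1 peak was assigned to 41 of the 49 members (83.7%); over all protein-coding genes the share was 51.3%. They carried 178 peaks together. The MAP2K tier had a peak at 7 of 7 genes, the MAP3K tier at 17 of 18, the MAP4K tier at 3 of 5, and the MAP kinases at 9 of 13. Among the MAP kinases, 3 of 3 ERK genes, 2 of 3 JNK genes, 3 of 4 p38 genes and 1 of 3 atypical genes had a peak. Of the 6 members whose symbol goes on with letters, such as the JNK scaffolds Mapk8ip1 to Mapk8ip3, 5 had a peak. A count of 5 or more peaks was reached by 17 members (34.7%), against 8.35% of all genes, and 13 members had a single peak. The 8 members without a cDC1 peak were Map3k10, Map4k1, Map4k2, Mapk4, Mapk10, Mapk13, Mapk15 and Mapk8ip1. Mapk10, the JNK gene known for its expression in neurons, is the longest member at 304.1 kb. Map4k1 encodes HPK1, a kinase of blood cells.

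**Figure D2:**
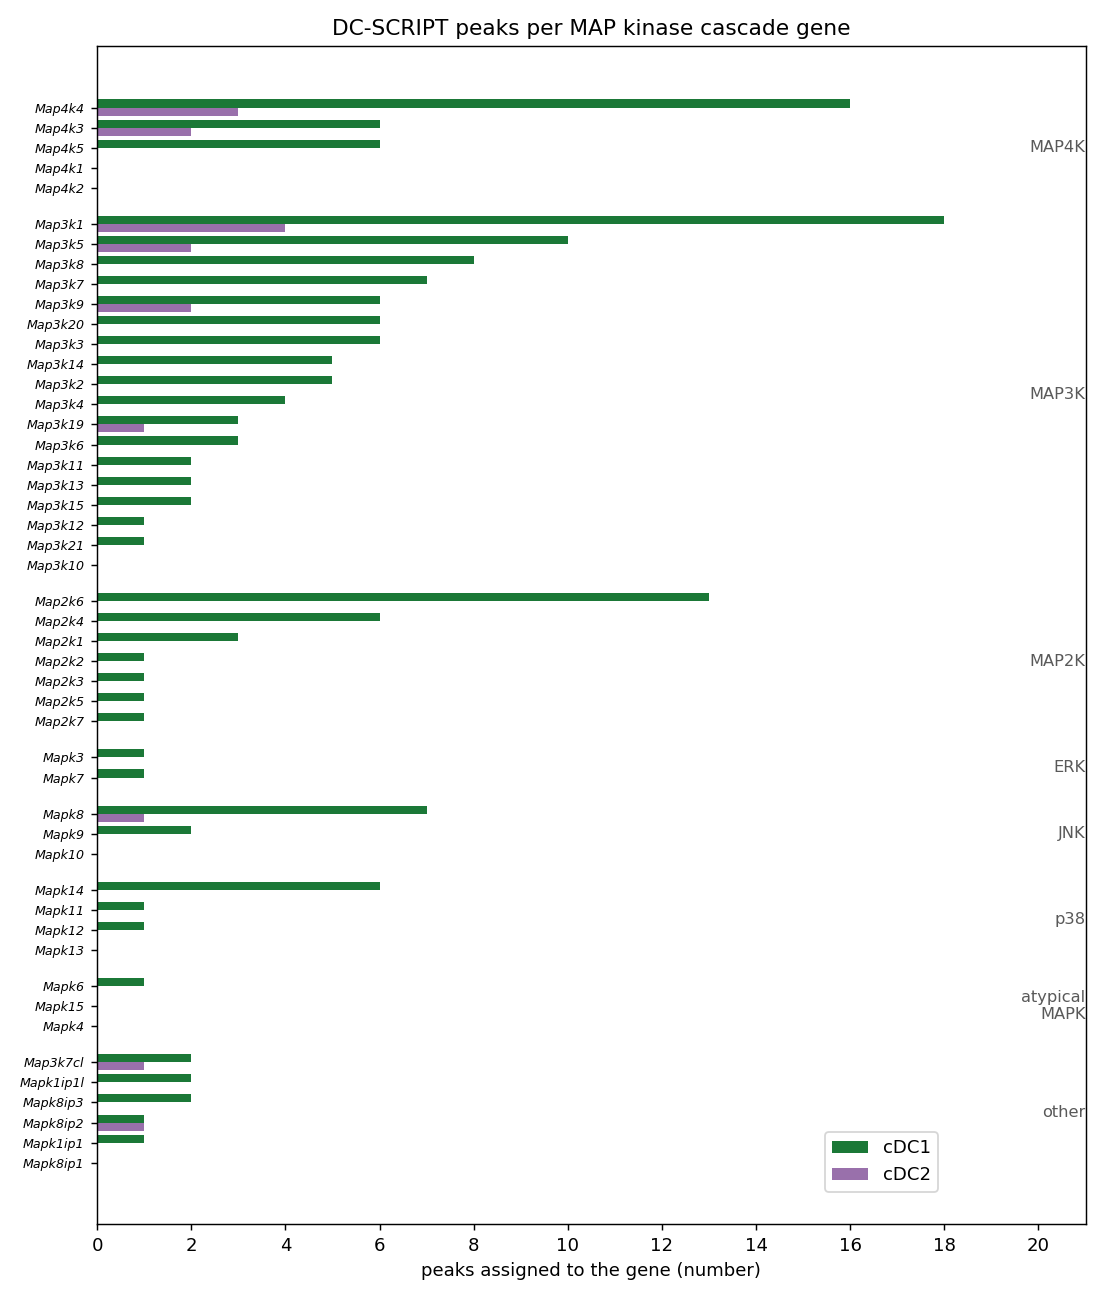
Number of peaks assigned to each of 48 members, grouped by tier, with cDC1 above cDC2 in each row. Map3k1 carried the most in cDC1 with 18, followed by Map4k4 with 16 and Map2k6 with 13, and no member carried more than 4 in cDC2.

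Longer genes had peaks more often over the whole list, and the members were longer than other genes, with a median length of 41.5 kb against 17.1 kb. All protein-coding genes were therefore split by length into 4 classes of near equal size, and the members were read against the genes of their own class. In the shortest class 1 of 2 members had a cDC1 peak, against 24.2% of genes. In the next class the count was 8 of 10, against 47.7%, and in the third it was 11 of 14, against 61.4%. In the class of genes over 44.3 kb, 21 of 23 members had a peak, against 72.0% of genes. Whether the members differ from genes of like length was not tested.

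Signal at the member peaks was close to that of the whole cDC1 list. The median was 1.65 normalised tags in KO cells and 16.3 in WT cells over the 178 peaks, and 1.65 in KO cells and 15.5 in WT cells over all 31473. The median fold was 10.5 at members and 10.2 over the list. With folds at the lowest KO value set to their lower bound, these medians were 8.08 and 7.52. KO tags were at the lowest value at 34 of the 178 peaks (19.1%), against 20.1% of the list. Of the member peaks, 105 (59.0%) were centred inside a protein-coding gene, against 56.0% of the list. A further 14 (7.87%) were centred within 1 kb outside a gene, against 8.42%, and 43 (24.2%) lay over 10 kb away, against 24.6%.

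The highest-scoring member peaks of cDC1 belonged to few genes. Of the 10 with the highest scores, 4 were assigned to Map3k1 and 4 to Mapk14, and the others to Map3k3, at the start described above, and Map3k4. The score is the authors' own and ranks peaks within 1 list.

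Map3k1 encodes MEKK1, a MAP3K known for its action on the JNK and ERK pathways and for a ubiquitin ligase domain. The gene lies on chromosome 13 from 111746428 to 111818269 on the minus strand, and the next protein-coding gene above its upper end, Ankrd55, is 470.2 kb away. It carried 18 cDC1 peaks, a number that 0.301% of all protein-coding genes reached. Of these, 3 were inside the gene, 1 lay below the lower end and 14 lay above the upper end, 3.81 kb to 183.0 kb away. The highest, at 112001148 to 112001338, held 9.07 normalised tags in KO cells, against 95.4 in WT cells (fold 10.5, 95% interval 5.80 to 21.3). Its neighbour at 111999790 to 111999980 held 6.18 in KO cells and 58.4 in WT cells (fold 9.57, 95% interval 4.41 to 20.8). A peak at 111980508 to 111980698 held 1.24 normalised tags in KO cells and 50 in WT cells (fold 41.2, 95% interval 8.26 to 251.9). Within Map3k1 itself, 111777382 to 111777572 had 1.24 in KO cells and 51.5 in WT cells (fold 41.8, 95% interval 8.54 to 260.4). The neighbouring peak was named after its values were seen. There, at 111778613 to 111778803, KO cells held 9.89 and WT cells 57.5 normalised tags (fold 5.81, 95% interval 3.26 to 11.4). The KO values of this pair rest on 1.5 and 12 tags, the fold intervals overlap, and a difference within the pair was not tested. The distant peaks belong to Map3k1 only as its nearest gene, and contact with its promoter was not analysed here.

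**Figure D3:**
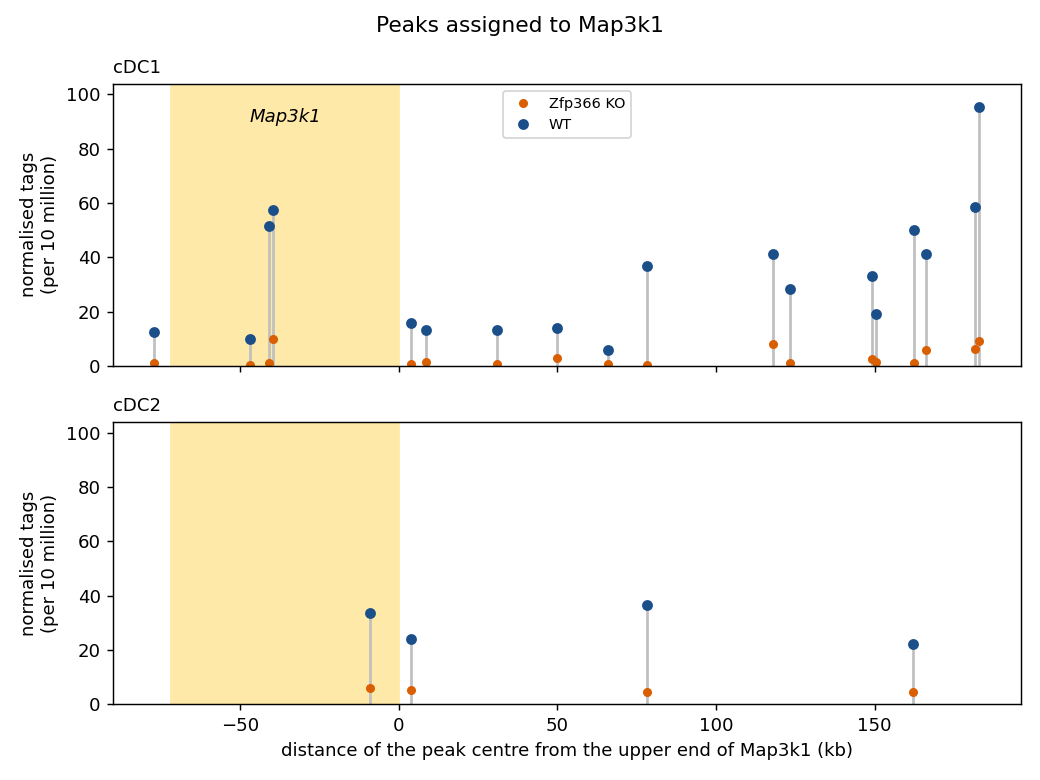
Normalised tags in KO and WT cells at each peak assigned to Map3k1, by distance of the peak centre from the upper gene end (kb), with cDC1 above and cDC2 below; the shaded span is the gene. In cDC1, 14 of 18 peaks lie above the upper end and the highest, 95.4 tags in WT cells, is 183.0 kb away; cDC2 has 4 peaks.

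Mapk14, the p38 alpha gene, lies on chromosome 17 from 28691342 to 28748405 and carried 6 cDC1 peaks, 5 of them inside the gene. The peak with the highest score, at 28702786 to 28702976, held 2.88 normalised tags in KO cells and 59.1 in WT cells (fold 20.5, 95% interval 6.91 to 66.5). At 28709831 to 28710021 KO cells held 8.24 and WT cells 61.2 normalised tags (fold 7.47, 95% interval 3.96 to 15.7). The pair at 28698122 to 28698312 and at 28697396 to 28697586 held 2.06 and 1.24 normalised tags in KO cells, against 57.2 and 50.7 in WT cells (folds 27.8 and 41.5, 95% intervals 7.81 to 113.2 and 8.40 to 256.2). Mapk13, the p38 gene that begins 20.9 kb above Mapk14, had no peak. The remaining p38 genes lie side by side on chromosome 15. Mapk12 had 1 peak with 6.59 normalised tags in KO cells and 36.2 in WT cells (fold 5.49, 95% interval 2.70 to 12.9), and Mapk11 had 1 with 1.65 in KO cells and 17.9 in WT cells (fold 10.8, 95% interval 2.86 to 90.9).

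Of the ERK genes, Mapk3, which encodes ERK1, had 1 peak 13.1 kb below the gene, with 4.95 in KO cells and 22.1 in WT cells (fold 4.47, 95% interval 1.95 to 12.5). Mapk8 carried 7 peaks, the highest with 6.18 normalised tags in KO cells and 27.9 in WT cells (fold 4.53, 95% interval 2.07 to 10.1). Of the atypical MAP kinase genes, Mapk6 had the peak at its start and Mapk4 and Mapk15 had none.

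Of the MAP2K genes, Map2k6 carried the most, with 13 of the 26 peaks of the tier. Of the 13, 6 were inside the gene, 3 lay below it and 4 lay above it, 13.0 kb to 191.1 kb away. The peaks outside belong to Map2k6 only as their nearest gene. Its highest peak, on chromosome 11 at 110372882 to 110373072, lay 26.1 kb below the gene, before its start. KO tags there were at the lowest value and WT cells held 44.4 normalised tags, at least 17.96-fold higher. Between the gene ends, 110448551 to 110448741 had 2.88 in KO cells and 36.5 in WT cells (fold 12.7, 95% interval 4.21 to 41.1). Map2k3, another activator of p38, had 1 peak, with 4.53 normalised tags in KO cells and 31.9 in WT cells (fold 7.02, 95% interval 2.87 to 17.9). Map2k2, which encodes MEK2, had 1 peak 4.64 kb above the gene with 3.30 in KO cells and 20.6 in WT cells (fold 6.24, 95% interval 2.34 to 23.5). Map2k5, the activator of ERK5, had the weakest top peak of the tier, with 1.65 normalised tags in KO cells and 9.16 in WT cells (fold 5.64, 95% interval 1.40 to 47.1).

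In the MAP3K tier, the strongest Map3k4 peak, between the gene ends on chromosome 17 from 12307701 to 12307891 held 6.59 normalised tags in KO cells and 58.1 in WT cells (fold 8.82, 95% interval 4.39 to 20.7). Map3k14 had a stronger peak within its body than at its start, on chromosome 11 from 103258151 to 103258341, with 4.12 in KO cells and 55.7 in WT cells (fold 13.5, 95% interval 5.71 to 42.2). Map3k8 encodes TPL2, which couples Toll-like receptors to ERK in myeloid cells. It carried 8 peaks, none inside the gene, the highest 0.168 kb above the upper gene end with 9.07 normalised tags in KO cells and 42.4 in WT cells (fold 4.68, 95% interval 2.53 to 9.55). Another Map3k8 peak, 1.73 kb above that end, held 2.06 in KO cells and 29.6 in WT cells (fold 14.4, 95% interval 3.99 to 59.0). The other 6 Map3k8 peaks lay 17.3 kb to 74.2 kb below the gene, assigned to it only as the nearest gene. Map3k5 encodes ASK1, a kinase of oxidative stress, and carried 10 peaks, 9 of them inside the gene, with 9.16 to 31.4 normalised tags in WT cells. Map3k9, which encodes MLK1, carried 6, and at its highest-scoring peak KO tags were at the lowest value and WT cells held 40.0 normalised tags, at least 16.2-fold higher. Map3k2, which encodes MEKK2, carried 5 peaks, with up to 40.7 normalised tags in WT cells. The highest WT signal per gene was 9.45 to 28.6 normalised tags at Map3k6, Map3k12, Map3k13, Map3k15, Map3k19 and Map3k20. The lowest WT signal of a top-scoring MAP3K peak was that of Map3k21, at 0.824 in KO cells and 6.20 in WT cells (fold 7.52, 95% interval 1.22 to 310.6).

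Map4k4 encodes a kinase of the JNK pathway and carried 16 peaks, 10 of them inside the gene, a number that 0.507% of all protein-coding genes reached. Its highest peak, on chromosome 1 at 39936468 to 39936658, held 4.95 normalised tags in KO cells and 46.2 in WT cells (fold 9.34, 95% interval 4.20 to 25.8). Map4k3 carried 6 peaks, 1 inside the gene, and Map4k5 carried 6, all inside the gene, with top-scoring WT signals of 22.3 and 19.7 normalised tags. Among the members that are not kinases by symbol, Mapk1ip1l reached 1.65 normalised tags in KO cells and 41.3 in WT cells (fold 25.1, 95% interval 6.79 to 208.1). Map3k7cl, related in sequence to the end of Map3k7, had a peak 30.1 kb above the gene with 0.824 in KO cells and 38.1 in WT cells (fold 46.1, 95% interval 8.15 to 1837). Mapk1ip1 had 1 peak, with 4.12 in KO cells and 29.2 in WT cells (fold 7.08, 95% interval 2.95 to 22.4).

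The cDC2 list assigned 18 peaks to 10 of the 49 members (20.4%), where 9.53% of all protein-coding genes had one. By gene length, the counts were 0 of 2, 1 of 10, 2 of 14 and 7 of 23 members from the shortest to the longest class, against 3.52%, 6.80%, 9.77% and 18.0% of genes. All 10 were also among the 41 members with a cDC1 peak, as were 94.6% of the 2087 genes with a cDC2 peak. Of the tiers, MAP3K had 4 genes, MAP4K 2, the MAP kinases 2 and the non-kinase members 2, while MAP2K, p38 and atypical genes had none. The labels give 1 WT library for cDC2, and tags were few, with under 12 WT tags at 12 of the 18 peaks. The lowest signal listed in cDC2 was 12.6 normalised tags, and 36 members (73.5%) had a cDC1 peak at or above it, against 39.6% of all genes. The cDC1 and cDC2 sets also differ in depth and in the number of libraries, whose part in the difference was not tested. Absence from the cDC2 list does not show that a site was unbound there.

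The highest cDC2 peak was that above Map3k7cl, on chromosome 16 at 87625286 to 87625476, with 11.7 normalised tags in KO cells and 53.4 in WT cells (fold 4.56, 95% interval 2.04 to 11.9). Map3k1 carried 4 peaks. The highest, at 111896550 to 111896740, lay 78.4 kb above the gene and held 4.40 normalised tags in KO cells, against 36.7 in WT cells (fold 8.34, 95% interval 2.50 to 45.5). The peak at 111809216 to 111809406 overlapped the Map3k1 start window and held 5.86 in KO cells and 33.5 in WT cells (fold 5.72, 95% interval 1.84 to 23.5). It was the only cDC2 peak in a start window of a member, 1 of 37 genes, against 1.46% of genes with a window. The nearest cDC1 peak lay 12.8 kb away. The remaining Map3k1 peaks held 5.13 and 4.40 normalised tags in KO cells, against 24.1 and 22.0 in WT cells (folds 4.70 and 5.0, 95% intervals 1.30 to 18.2 and 1.38 to 29.3).

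Map4k3 had cDC2 peaks 39.2 kb and 44.0 kb above the gene, with 6.59 and 2.93 normalised tags in KO cells, against 33.5 and 22.0 in WT cells (folds 5.08 and 7.5, 95% intervals 1.60 to 16.0 and 1.72 to 73.0). Map4k4 had 3, all above its upper end by 11.8 kb to 28.9 kb. Of these, the farthest held 5.86 in KO cells and 24.1 in WT cells (fold 4.29, 95% interval 1.30 to 18.2). At the other 2, KO tags were at the lowest value and WT cells held 22.0 and 14.7 normalised tags, at least 5.01-fold and 3.34-fold higher. Map3k19 held 1.47 normalised tags in KO cells and 27.2 in WT cells at a peak inside the gene (fold 18.6, 95% interval 2.79 to 789.7). Map3k9 had a peak inside the gene with KO tags at the lowest value and 14.7 in WT cells, at least 3.34-fold higher. A second, 38.3 kb above it, held 2.93 in KO cells and 19.9 in WT cells (fold 6.79, 95% interval 1.52 to 67.1). At both Map3k5 peaks KO tags were at the lowest value, and WT cells held 16.8 and 14.7 normalised tags, at least 3.82-fold and 3.34-fold higher. The lower bounds at Map4k4, Map3k9 and Map3k5 rest on 7 to 11 WT tags per peak and leave out WT counting error. Mapk8 held 3.66 normalised tags in KO cells and 19.9 in WT cells (fold 5.43, 95% interval 1.23 to 26.9). Mapk8ip2, a JNK scaffold gene, held 1.47 in KO cells and 14.7 in WT cells (fold 10.01, 95% interval 1.29 to 451.0).

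Over the 18 cDC2 peaks of members, the median was 2.93 normalised tags in KO cells and 22.0 in WT cells, against 3.66 in KO cells and 24.1 in WT cells over all 2776. The median fold was 7.92 at members and 7.42 over the list, or 5.04 and 6.08 with folds at the lowest KO value set to their lower bound. KO tags were at the lowest value at 5 of the 18 peaks (27.8%), against 13.8% of the list. Of the 18 peaks, 8 (44.4%) were inside a protein-coding gene, against 50.1% of the list, 0 within 1 kb outside a gene, against 7.78%, and 9 (50%) over 10 kb away, against 28.4%.

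At least 1 bp was shared with a cDC1 peak by 14 of the 18 cDC2 peaks (77.8%), against 63.7% of the whole cDC2 list. They overlapped 14 of the 178 cDC1 peaks of members. Of the other 4, those at Map4k4, Map4k3 and Map3k9 had a cDC1 peak centred within 0.522 kb, and the Map3k1 start did not. WT signal in the shared regions was compared as the ratio of cDC1 to cDC2, with an exact 95% interval over tags. These intervals compare 2 pooled tag sets and not the cell types. The median ratio was 0.685 at members and 1.09 over all shared regions. The interval lay above 1 at 2 regions. The Map3k9 region held 47.8 normalised tags in WT cells of cDC1, against 14.7 in WT cells of cDC2 (ratio 3.25, 95% interval 1.55 to 8.26). At the distal Map3k1 region, 162.3 kb above the gene, it was 50 in cDC1 and 22.0 in cDC2 (ratio 2.27, 95% interval 1.18 to 4.42). The interval lay below 1 at 2 further regions. Map4k3 had 11.7 normalised tags in cDC1 and 33.5 in cDC2 (ratio 0.349, 95% interval 0.189 to 0.659), and Mapk8 had 8.74 in cDC1 and 19.9 in cDC2 (ratio 0.439, 95% interval 0.199 to 0.954). Both had under 12.6 in cDC1, so the listing fixed the direction of these 2 ratios. KO signal, which the ratios leave out, was 1.24 in cDC1 and 6.59 in cDC2 at Map4k3, and 1.65 and 3.66 at Mapk8. It was 2.88 and the lowest value at Map3k9, and 1.24 and 4.40 at the distal Map3k1 region. The fold over KO was 9.68 in cDC1 and 5.08 in cDC2 at Map4k3, and 5.30 and 5.43 at Mapk8. At Map3k1 it was 41.2 and 5.0, and at Map3k9 16.8 and at least 3.34. At the remaining 10 the interval held 1. At Map3k7cl, for example, WT signal was 38.1 in cDC1 and 53.4 in cDC2 (ratio 0.713, 95% interval 0.457 to 1.11), while KO signal was 0.824 in cDC1 and 11.7 in cDC2.

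**Figure D4:**
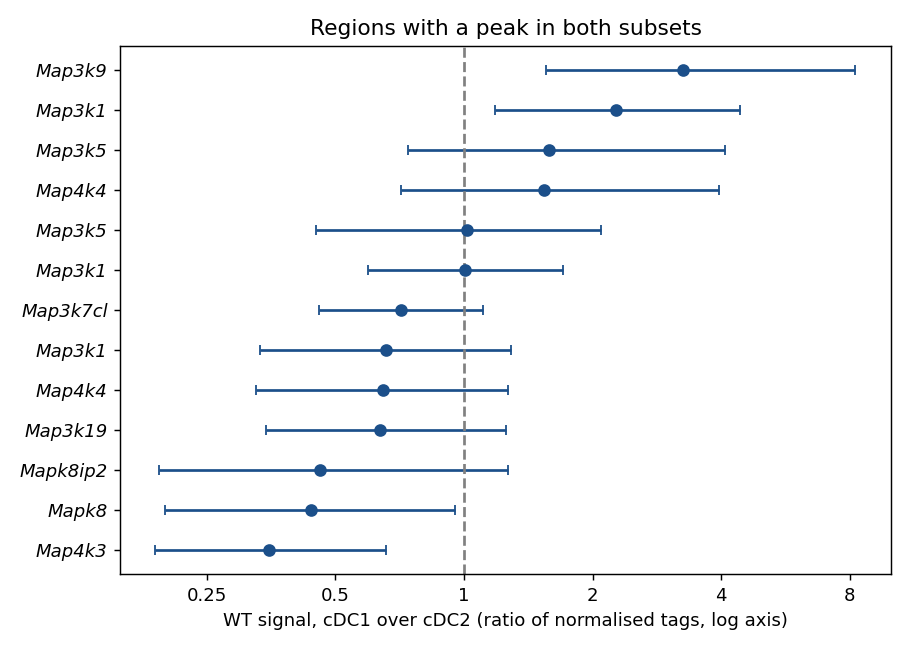
Ratio of WT normalised tags, cDC1 over cDC2 (log axis), in 13 regions of members with a peak in both subsets, with exact 95% intervals for counting error; the dashed line marks equal signal. Intervals lie above 1 at Map3k9 and at 1 Map3k1 region, and below 1 at Mapk8 and Map4k3. At Mapk8 and Map4k3 the cDC1 signal was under the lowest signal listed in cDC2, so the ratio could only be below 1.

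Genes that act next to the cascades were counted from 3 lists, chosen with earlier results of these data known. Upstream of the tiers, 19 of 22 genes (86.4%) had a cDC1 peak and 5 (22.7%) a cDC2 peak. The adaptor gene Grb2 had the highest-scoring cDC2 peak of this list, with 16.1 normalised tags in KO cells and 66.0 in WT cells. Hras, Mos and Tnik had no peak in either subset. Of the substrates, 20 of 21 (95.2%) had a cDC1 peak and 9 (42.9%) a cDC2 peak. The transcription factor gene Fos reached 8.65 in KO cells and 96.3 in WT cells of cDC1, and Mef2c 15.4 in KO cells and 76.4 in WT cells of cDC2. Mapkapk2, the kinase downstream of p38, had 6 cDC1 and 2 cDC2 peaks. Of the phosphatases that turn MAP kinases off, 11 of 14 (78.6%) had a cDC1 peak and 4 (28.6%) a cDC2 peak. Dusp6, which acts on ERK, carried 14 in cDC1 and 4 in cDC2. These shares stand beside 51.3% and 9.53% of all protein-coding genes, and differences between the lists were not tested. Gene length was not taken into account for these lists, although longer genes had peaks more often.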

How the data were processed

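The titles of the DC-SCRIPT CUT&Tag libraries gave subset and genotype. The deposited tables hold the peaks of HOMER findPeaks in its factor mode, called on 1 set of WT tags against 1 set of KO tags, per the file headers. Peaks were 191 bp wide and at most 1 tag per bp was considered. The headers give 0.001 as false discovery rate, 4 as lowest fold and 0.0001 as highest Poisson p-value, over KO and over the surrounding 10 kb. HOMER and the builds GRCm38 and mm10, names of 1 assembly, come from the submitters' processing notes. The sources used here name neither the aligner nor the libraries in each tag set.

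The deposited signal is WT tags scaled to 10000000. The tags behind the fold are given at KO depth in cDC1 and at WT depth in cDC2, and were scaled back here. The KO depth was worked out from that scaling, and in cDC2 it rests on the lowest listed KO value being 0.5 tag. The authors also deposited a Poisson p-value for each peak, which is not printed here. The deposited fold is a ratio of WT to KO tags, the deposited score was used only to rank peaks within a list, and the deposited fraction called focus ratio was read and not used. Intervals are exact (Clopper-Pearson, 95%, scipy 1.17.1), with tags rounded to whole numbers. Tags are not known to be independent molecules, so intervals cover counting error only. Lower bounds allow for counting error of the KO tags alone and take the WT tags as exact. The assignment and the interval were tested on simulated data.

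A peak inside several genes was counted for each. Since the tables hold pooled tags, no test between genotypes or subsets was made. Peaks on sequences that the gene table does not hold, 11 in cDC1 and 1 in cDC2, went to no gene. Members and lists were chosen with earlier results of these data known. Named were the members of each tier with the highest-scoring cDC1 peaks, those with the most peaks, those with a cDC2 peak and those with no peak. Other members were named after their values were seen. Full values are given for the 10 highest-scoring cDC1 peaks, the cDC2 peaks and the peaks in start windows. Values of 1 member and of 1 gene of the upstream list are not reported here by name, and the member is left out of the figures; both stay in the counts. Alternatives varied the assignment, the score, the fold limit, the overlap and the members.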

Additional observations from a re-analysis of the deposited data

How the results depend on the processing

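No paired analysis was possible because the tables hold no value per library, and for the same reason no replicate could be left out. The number of members with a cDC1 peak was 32 to 38 under its 6 alternatives, against 41. The number with a cDC2 peak was 7 or 8 under 4 alternatives and 4 with the higher-scoring 50% of peaks, against 10. The alternative of kinases only counts 43 genes rather than 49, with 36 in cDC1 and 8 in cDC2. Among these alternatives, the share of all genes is given only for peaks at or above the lowest cDC2 signal. The 178 cDC1 peaks became 105 with centres inside the member only, 98 with the higher-scoring 50%, 117 with a fold of at least 8 and 115 at or above the lowest cDC2 signal. The 18 cDC2 peaks became 8, 9, 6 and 9 with centres inside the member, with peaks inside or within 10 kb, with the higher-scoring 50% and with a fold of at least 8. With the higher-scoring 50% of peaks the median WT signal was 26.5 normalised tags in cDC1, against 16.3, and 33.5 in cDC2, against 22.0, as that choice keeps stronger peaks. With a fold of at least 8 the median cDC1 fold was 14.5, against 10.5, by construction. The median cDC2 fold was 14.3 with centres inside the member, against 7.92. It was 20.01 with a fold of at least 8, by construction. Both lay within the exact 95% interval of the median of 7.92, which is wide at 18 peaks and so shows little about stability. These medians use deposited folds, which count the lowest KO value, found at 5 of the 18 peaks, as 0.5 tag. Shared cDC2 peaks numbered 11 with an overlap of 50%, 17 with centres within 1 kb, 7 inside the member and 3 with the higher-scoring 50% of both lists, against 14. The remaining alternatives stayed within 1.5 times for counts and within the exact 95% interval of the median for medians, 26 of 40 in all. In cDC2, 3 KO tags equal 4.40 normalised tags, so folds at low KO values are imprecise there.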
